A study of Homo sapiens with 4 samples.

Results

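The 4 human HOX clusters were described here by their H3K4me3 peaks in MDA-MB-231 cells with and without ARID1A. H3K4me3, trimethylation of lysine 4 of histone H3, is a mark found mainly at active and poised promoters. Members were the deposited peaks that shared at least 1 bp with an hg19 window: HOXA on chromosome 7 from 27130000 to 27260000, HOXB on chromosome 17 from 46600000 to 46830000, HOXC on chromosome 12 from 54330000 to 54452000, and HOXD on chromosome 2 from 176940000 to 177060000. This gave 40 of 60265 peaks, namely 29 of 36677 in the control list and 11 of 23588 in the knockout list. The windows hold the 38 HOX genes considered here, with 10 in HOXA, 10 in HOXB, 9 in HOXC and 9 in HOXD. No hg19 gene annotation was used, so no peak was tied to a single gene, and the windows could not be checked against gene positions. Genes are named below for their order within a cluster.

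MDA-MB-231 is a widely used cell line from a breast cancer of the triple-negative kind. The control group had the genotype label control, and the knockout group lacked, by its label, which was not checked here, ARID1A, a DNA-binding subunit of the BAF form of the SWI/SNF chromatin remodelling complex. There was 1 H3K4me3 immunoprecipitate and 1 input library for each genotype, with 27748061 control and 13391724 knockout tags in the immunoprecipitates. The comparison concerns how the mark is distributed over the clusters in cells that lack ARID1A. Per the labels, chromatin in all libraries was digested with micrococcal nuclease, and the labels do not say whether the knockout was a single clone. The name inside the knockout list's header is not among the labels, so that list was matched by its file's name. The cell line field of 3 libraries ends in other numbers than the line in the series title, and the input libraries carry IgG as antibody. With no replicates there was no test of the genotype, no p-value is given, and every interval covers counting error only. Copies of 1 fragment may count as separate tags in these intervals.

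HOX genes encode homeodomain transcription factors that give cells their position along the head-to-tail axis of the embryo. Within each cluster, the genes with low numbers lie at the 3′ end and act towards the head (anterior), and those with high numbers lie at the 5′ end and act towards the tail and the distal limb (posterior). In differentiated cells, parts of a cluster that are in use typically carry H3K4me3, placed by trithorax-type methyltransferases such as KMT2A, and parts that are not in use carry the Polycomb mark H3K27me3. In each window the anterior end was taken as the side of the low-numbered genes: HOXA2 in HOXA, where HOXA13 is at the other end, HOXB1 against HOXB13, HOXC4 against HOXC13, and HOXD1 against HOXD13. This is the low-coordinate end in HOXA and HOXB and the high-coordinate end in HOXC and HOXD.

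To show the kind of promoter sequence found in these clusters, those of the outermost genes of HOXA, which had no knockout peak, and of HOXD, which had the most knockout tags, are printed below. They are the 250 bases before the start site, 5′ to 3′ on the gene's strand, from RefSeq in build GRCh38.p14, whose positions cannot be set beside the hg19 peak positions. Capitals mark each CG dinucleotide, the CpG that proteins with a CXXC domain in H3K4 methyltransferase complexes bind when it is unmethylated.
HOXA2 (chr7:27102684-27102933, minus strand): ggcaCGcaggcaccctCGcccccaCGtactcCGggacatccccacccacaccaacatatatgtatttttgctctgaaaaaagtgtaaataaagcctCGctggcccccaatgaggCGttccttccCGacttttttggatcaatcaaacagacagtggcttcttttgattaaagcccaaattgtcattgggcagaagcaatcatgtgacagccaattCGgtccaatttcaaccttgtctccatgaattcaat
HOXA13 (chr7:27200092-27200341, minus strand): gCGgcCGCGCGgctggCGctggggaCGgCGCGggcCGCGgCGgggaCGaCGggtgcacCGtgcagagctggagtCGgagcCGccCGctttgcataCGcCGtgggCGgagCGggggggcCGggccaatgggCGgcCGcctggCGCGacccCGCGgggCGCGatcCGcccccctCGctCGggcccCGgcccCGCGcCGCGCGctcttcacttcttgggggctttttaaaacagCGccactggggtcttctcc
HOXD1 (chr2:176188418-176188667, plus strand): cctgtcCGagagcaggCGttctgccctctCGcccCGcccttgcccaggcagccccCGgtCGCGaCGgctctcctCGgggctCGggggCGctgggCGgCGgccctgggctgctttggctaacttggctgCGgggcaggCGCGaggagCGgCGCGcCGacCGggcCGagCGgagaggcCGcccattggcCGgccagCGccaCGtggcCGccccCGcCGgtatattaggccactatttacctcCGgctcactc
HOXD13 (chr2:176092471-176092720, plus strand): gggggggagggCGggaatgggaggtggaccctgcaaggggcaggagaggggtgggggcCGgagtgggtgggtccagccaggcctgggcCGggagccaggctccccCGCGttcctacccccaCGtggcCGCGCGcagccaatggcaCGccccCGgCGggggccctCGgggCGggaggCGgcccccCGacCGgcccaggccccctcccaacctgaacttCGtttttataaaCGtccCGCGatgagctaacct

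HOXA13, which patterns the distal limb and the genital tract, had 40 CpGs in these 250 bases, more than 97.8% of the 35116 RefSeq promoter entries cut in the same way. HOXD1, the most anterior gene of its cluster, had 31 CpGs, more than 89.1% of entries. HOXD13, needed for digit formation, had 21 CpGs, more than 69.8%. HOXA2, which patterns the hindbrain and the branchial arches, had 8, fewer than the median entry with 11. Of the 38 genes, 20 had a promoter entry, with 9 in HOXA, 8 in HOXD, 2 in HOXC and 1 in HOXB. A comparison of promoter sequence over the whole set of genes was therefore void.

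In control cells the mark was present in every cluster, in separate peaks with long stretches between them in which no peak was called. The control list had 6 peaks in HOXA, 10 in HOXB, 6 in HOXC and 7 in HOXD. Together they covered 14.3% of the 4 windows, against 5.16% of the effective genome for the whole list. By cluster the covered share was 9.08% in HOXA, 14.8% in HOXB, 14.9% in HOXC and 18.1% in HOXD. The knockout list had no peak in HOXA, 4 in HOXB, 3 in HOXC and 4 in HOXD. These 11 peaks covered 0.711% of the windows, against 0.383% of the effective genome for all knockout peaks. By cluster the knockout share was 0% in HOXA, 0.676% in HOXB, 0.738% in HOXC and 1.52% in HOXD, so HOXD had the highest covered share in both lists and HOXA the lowest.

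**Figure D1:**
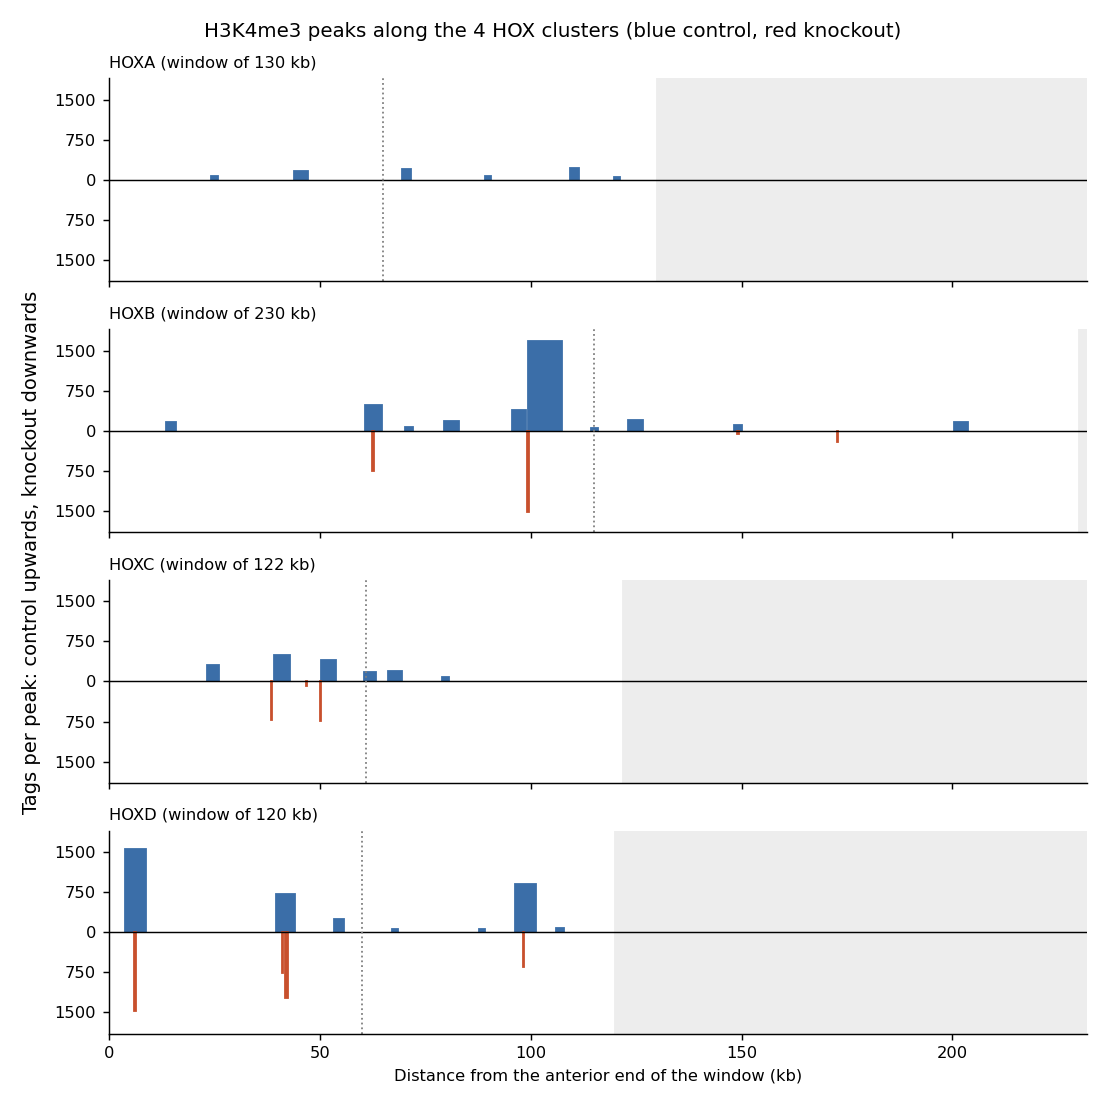
H3K4me3 peaks along the 4 HOX windows, with distance from the anterior end of the window in kb on the x axis and tags per peak on the y axis, control (blue) upwards and knockout (red) downwards. Each bar is 1 peak drawn at its width, the dotted line is the middle of the window, and grey shading lies outside it. HOXA has 6 low control peaks of 54 to 220 tags and no knockout peak, and the tallest bars of both lists stand in HOXB and HOXD.

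The peaks of the clusters were dense along the chromosome but mostly of ordinary size. In the control list there were 48.2 peaks per Mb over the 4 windows, against 13.6 per Mb of the effective genome. Their median width was 2830 bp, against 2968 bp over the whole list, and their median was 185 tags, against 168. Domains of at least 4 kb numbered 5 of 29 (17.2%, exact Clopper-Pearson 95% interval 5.85 to 35.8%), with 2 in HOXB, 3 in HOXD and none in HOXA or HOXC. Over all control peaks the share was 35.1%. A false discovery rate above 1% in the authors' table was found for 11 of the 29 HOX peaks (37.9%, 20.7 to 57.7%), against 45.4% of all control peaks.

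**Figure D2:**
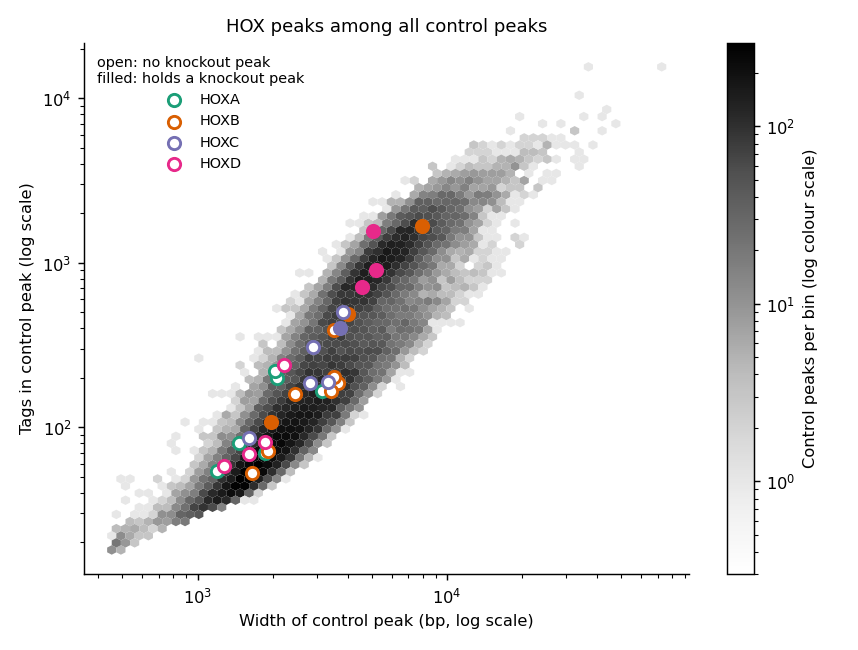
Width in bp (x axis, log scale) against tags (y axis, log scale) of all 36677 control peaks, with the number of peaks per bin as grey shading. The 29 HOX peaks are circles coloured by cluster, filled where a knockout peak overlaps. They lie from 1196 to 7954 bp and from 53 to 1681 tags, inside the range of the whole list.

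HOXA was the most weakly marked cluster. From the anterior to the posterior end its 6 control peaks held 70, 166, 201, 80, 220 and 54 tags, at widths of 1860, 3163, 2084, 1464, 2043 and 1196 bp. Even the strongest exceeded only 56.3% of all control peaks in tags, and 5 of the 6 were narrower than the list's median width. The strongest, on chromosome 7 from 27239384 to 27241426, had 220 tags (exact Poisson interval 192 to 251) and lay 110.1 kb from the anterior end, on the HOXA13 side. The next, from 27199600 to 27201683, had 201 tags (174 to 231) over 2084 bp. The widest, from 27173949 to 27177111, had 166 tags over 3163 bp. In all, HOXA held 791 control tags, a density of 66.98 tags per covered kb, against 124 over the whole list. The first 24.1 kb from the anterior end, where HOXA2 stands first among the genes considered, carried no control peak.

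No knockout peak lay in the HOXA window. The nearest to any HOXA control peak was 29012 bp beyond the most posterior of them. A peak list gives no level for a region without a peak, so the knockout signal in HOXA is not known beyond its having passed no threshold. The exact 95% interval of 0 of 6 control peaks reaches 45.9%. The 6 peaks fell in the second to sixth of 10 equal groups of control peaks by tags. In those groups the share with a knockout peak ran from 4.69 to 15.7% over the whole list.

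HOXB carried the strongest HOX domain of the control list, near the middle of its window. On chromosome 17 from 46699363 to 46707316, it spanned 7954 bp with 1681 tags (1602 to 1763). More tags than 94.7% of control peaks placed it in the strongest of the 10 groups, and it held 48.0% of all HOXB control tags. Its summit lay 102.9 kb from the anterior end. A neighbouring peak from 46695495 to 46699015, separated from it by 347 bp, had 390 tags over 3521 bp.

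The second strongest HOXB peak, from 46660648 to 46664661, had 487 tags (445 to 532) over 4014 bp, 63.3 kb from the anterior end. Another wide peak, from 46679372 to 46683016, had 185 tags over 3645 bp, and the remaining 6 had between 53 and 202 tags. The most anterior HOXB peak, on the side of HOXB1, a gene of hindbrain patterning, had 160 tags from 46613497 to 46615945. The most posterior, on the side of HOXB13, a gene expressed in the prostate, had 167 tags from 46800350 to 46803773. Between 150.1 and 200.4 kb from the anterior end, a stretch of 50.2 kb had no control peak, the longest such stretch in the 4 windows.

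The knockout list had its strongest HOX peak at the same strong HOXB domain, but at its edge. It ran from 46699166 to 46699631 and held 1516 tags (1441 to 1594) in 466 bp. Of its length 57.7% overlapped the 7954 bp domain, and the rest lay in the gap towards the 390-tag neighbour, whose end was 150 bp away. Its summit was 3463 bp from the domain's summit and 35 bp inside its border. The second knockout peak, from 46662442 to 46662759 with 749 tags (696 to 805) in 318 bp, lay wholly inside the 487-tag domain, 683 bp from its summit. Another, from 46748806 to 46749275, had 69 tags (53.7 to 87.3) and lay inside a control peak of 108 tags (88.6 to 130.4). The fourth, from 46772522 to 46772821 with 204 tags (177 to 234), stood in the 50.2 kb stretch without control peaks, 22376 bp from the nearest.

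HOXC had a run of moderate control peaks in its anterior part and none at either end. From the anterior end its 6 peaks held 310, 503, 404, 185, 189 and 86 tags, at widths of 2894, 3814, 3718, 2830, 3341 and 1612 bp. The strongest, on chromosome 12 from 54409102 to 54412915, had 503 tags (460.0 to 549), and the next, from 54398055 to 54401772, had 404 (366 to 445). The peak of 310 tags ran from 54425939 to 54428832, and the third in width, from 54382474 to 54385814, had 189 tags. The last 41.4 kb of the posterior end, on the side of HOXC13, a gene needed for hair and nails, and the first 23.2 kb of the anterior end, on the side of HOXC4, had no control peak.

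The 3 knockout peaks of HOXC were each 300 bp wide and lay beside control domains rather than within them. The peak from 54401748 to 54402047, with 733 tags (681 to 788), shared 25 bp with the 404-tag domain, and its summit lay 125 bp outside that domain. The peak from 54413344 to 54413643, with 717 tags (665 to 771), missed the 503-tag domain by 428 bp. The last, from 54404986 to 54405285, had 78 tags (61.7 to 97.3) and lay 3213 bp from any control peak, between these domains.

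HOXD was the most densely marked cluster, with 3 strong domains spread along the window and 4 weaker peaks. The control domain nearest the anterior end, on chromosome 2 from 177051123 to 177056163, held 1555 tags (1479 to 1634) over 5041 bp. Its summit lay 6.34 kb from the window's anterior end, on the side of HOXD1. It had more tags than 93.4% of control peaks, and a fold enrichment in the authors' table above that of 99.7% of them. This fold enrichment was the highest of the HOX peaks in the control list. The domain from 176958637 to 176963805 had 900 tags (842 to 961) over 5169 bp, 98.2 kb from the anterior end, on the side of HOXD13. The third, from 177015791 to 177020368, had 717 tags (665 to 771) over 4578 bp, 42.2 kb from the anterior end. The other 4 HOXD peaks had 240, 58, 69 and 81 tags in order towards the posterior end. A stretch of 30.8 kb without a control peak separated the most anterior domain from the next.

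All 4 knockout peaks of HOXD lay inside these 3 strong domains. In the most anterior domain, the knockout peak from 177053577 to 177054107 held 1466 tags (1392 to 1543) in 531 bp, 177 bp from the control summit. In the most posterior of the 3, a 300 bp peak from 176961495 to 176961794 held 655 tags (606 to 707), 178 bp from the control summit. The domain between them held 2 knockout peaks, from 177017558 to 177018251 with 1228 tags (1160 to 1299) in 694 bp, and from 177018675 to 177018974 with 766 tags (713 to 822) in 300 bp. The former was 65 bp from the control summit, the closest of all HOX peaks. None of the 4 weaker HOXD control peaks held a knockout peak.

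The windows were then cut at their middle into an anterior and a posterior side. In the control list the anterior side was more fully covered in HOXB (21.0% against 8.60%), HOXC (17.8% against 12.1%) and HOXD (19.7% against 16.5%). In HOXA the posterior side was more fully covered (10.4% against 7.73%). For HOXA and HOXC this order depended on where the window was cut. With the boundary 10 kb nearer the anterior end, HOXC was covered to 14.7% on the anterior and 15.1% on the posterior side, and HOXA to 9.13% and 9.05%. With the boundary 10 kb nearer the posterior end, HOXA was covered to 9.48% on the anterior and 8.55% on the posterior side. HOXB and HOXD kept the fuller anterior side at both of these boundaries. Tags, shared by length where a peak crossed the middle, leaned the same way at the middle. The anterior side held 85.5% of the control tags in HOXB, 74.2% in HOXC, 69.4% in HOXD and 29.8% in HOXA.

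With the cut at the middle, median control peak width was larger on the anterior side in each of the 4 clusters. This included HOXA, whose tags lay more on the posterior side. The median width of control peaks with their summit on the anterior side was 3583 bp in HOXB, against 2701 bp on the posterior side. It was 3718 bp against 2830 bp in HOXC and 4578 bp against 1736 bp in HOXD, where the posterior side still held the widest domain, of 5169 bp. In HOXA it was 2511.5 bp for 2 anterior peaks against 1753.5 bp for 4 posterior peaks, so the HOXA peaks were wider on the side with fewer tags. The HOXA order in tags turned when the boundary was moved by 10 kb towards the posterior end, which put 55.2% of its tags on the anterior side, because the 201-tag peak lies close to the middle. In HOXB, HOXC and HOXD the anterior side held more of the control tags at each of the 3 boundaries, with a lowest share of 70.9% in HOXB, 53.5% in HOXC and 62.8% in HOXD.

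The knockout tags were on the anterior side to a larger share. Of the 11 knockout peaks, 8 had their summit there, with 88.7% of the tags, against 72.8% of the control tags. In HOXB the anterior side held 89.2% of the knockout tags, in HOXD 84.1%, and in HOXC all 3 peaks. The posterior side held 2 HOXB peaks of 69 and 204 tags and 1 HOXD peak of 655 tags. In covered length the HOXB sides were nearly equal in the knockout, at 784 bp anterior and 770 bp posterior. With 11 peaks, these shares rest on few regions.

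**Figure D3:**
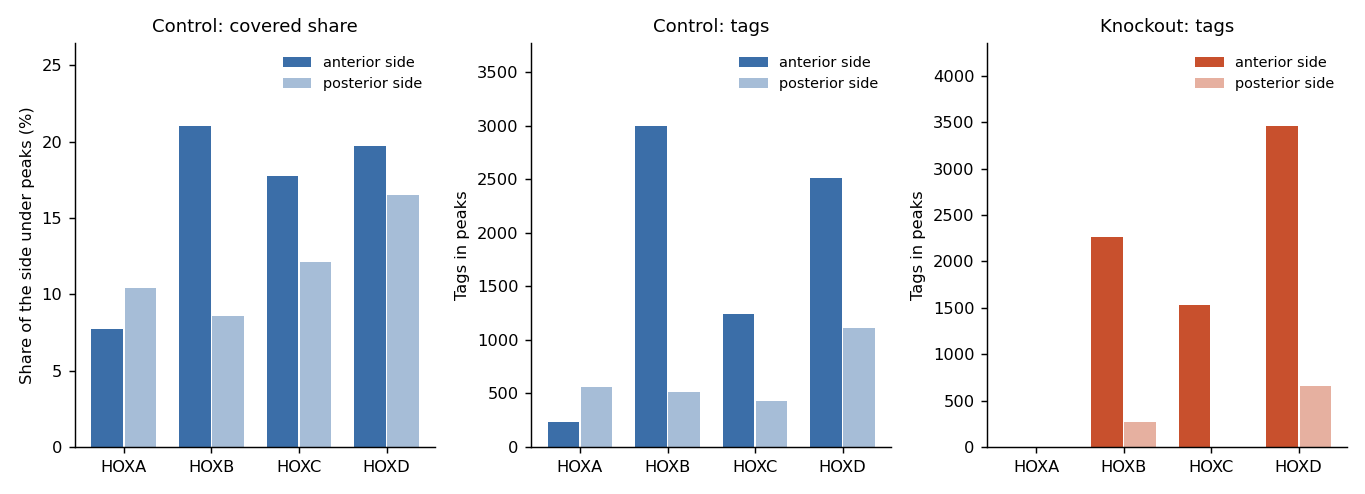
Covered share of each side of the 4 windows in the control list (left, in %), tags in control peaks (middle) and tags in knockout peaks (right), with full colour for the anterior and pale colour for the posterior side. With the cut at the middle, the anterior bar is the taller in HOXB, HOXC and HOXD in each panel, and in HOXA the posterior bar is the taller in the control, with no bar in the knockout.

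The HOX domains that held a knockout peak were mostly the strong ones. A knockout peak overlapped 7 of the 29 HOX peaks in the control list (24.1%, 10.3 to 43.5%), against a background of 28.4% of all control peaks. The interval of the HOX share includes that background. The number was 0 of 6 in HOXA, 3 of 10 in HOXB, 1 of 6 in HOXC and 3 of 7 in HOXD. Of the 6 HOX control peaks with at least 450 tags, a limit chosen after the values were seen, 5 held a knockout peak, and the sixth was the HOXC domain with a knockout peak 428 bp away. Of the 23 weaker ones, 2 did, namely the 404-tag HOXC domain, by 25 bp, and the 108-tag HOXB peak. Over the whole control list the shares on these sides of 450 tags were 67.5% and 10.3%. Both HOX control peaks of at least 1000 tags held a knockout peak, as did 79.8% of all control peaks of that strength. In the opposite direction 8 of the 11 knockout peaks met a control peak (72.7%, 39.0 to 94.0%), against a background of 60.3%, and the other 3 were the isolated HOXB peak and 2 HOXC peaks.

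**Figure D4:**
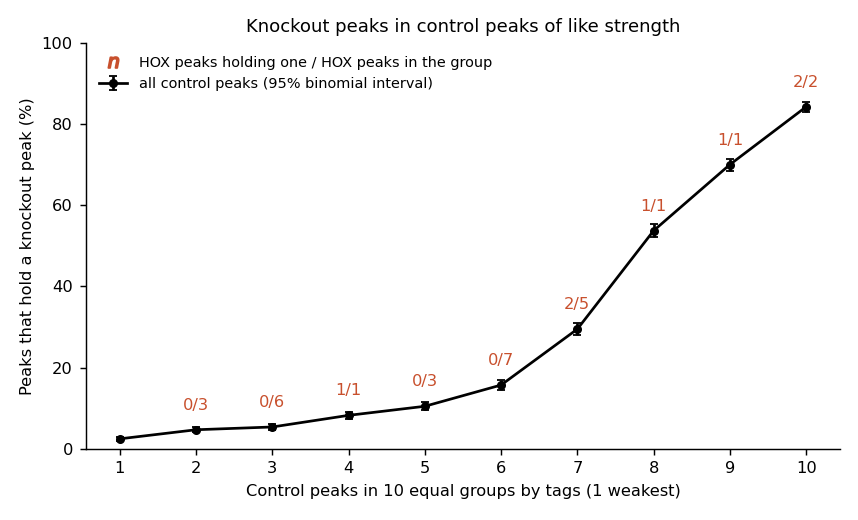
Share of control peaks that hold a knockout peak (y axis, in %) in 10 equal groups by tags (x axis, weakest to strongest), with exact 95% binomial intervals. Red fractions give HOX peaks with a knockout peak over HOX peaks in the group: 0 of 7 in the sixth group, 2 of 5 in the seventh, and all 4 in the 3 strongest groups.

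Inside the clusters the knockout peaks were narrow and rich in tags, as in the list as a whole. Of the 11, 6 were exactly 300 bp wide, against 55.0% of all knockout peaks, and the widest had 694 bp. The fragment length in the MACS run was also 300 bp. Over the whole knockout list, peaks held 13307723 of the 13391724 immunoprecipitate tags, against 17235561 of 27748061 in the control. Whether the narrow, dense knockout peaks come from the library, the peak calling or the genotype was not tested. Their median was 733 tags, against 419 over the knockout list. Per covered kb the knockout peaks held 1912 tags in the HOX windows and 1288 over the whole list, and the control peaks 112 and 124. Across the 8 pairs of overlapping HOX peaks the summits were a median of 565.5 bp apart, against 568 bp over all 14240 overlapping pairs.

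Tags were also summed over the peaks of each cluster. These sums run over stretches called separately in each list, so their ratio compares different lengths of chromosome and is not a fold change at the same sites. The covered length was 21.7 kb in the control and 1.825 kb in the knockout in HOXD, 18.2 and 0.900 kb in HOXC, and 34.1 and 1.55 kb in HOXB. The mean density was 166 and 2255 tags per covered kb in HOXD, 92.1 and 1698 in HOXC, and 103 and 1633 in HOXB. Of all tags in peaks, HOXD held 0.0210% in the control and 0.0309% in the knockout, a log2 ratio of knockout over control of 0.56 (0.49 to 0.62). HOXC held 0.00973% and 0.0115%, a ratio of 0.24 (0.14 to 0.34), and HOXB 0.0203% and 0.0191%, a ratio of -0.09 (-0.17 to -0.02). HOXA held 0.00459% of the control tags and no knockout peak, for which no ratio is given. The median over all 7552 peaks shared by both lists was -0.08 on this scale, -0.46 with raw tags and 0.60 after division by the library totals. It is a median of single overlapping pairs, whereas the cluster ratios are of sums that include unshared peaks, so the measures are unlike. The HOXD ratio was above 0 on each of the 3 scales, whereas HOXB was at 0.59 after division by the library totals and HOXC at -0.13 with raw tags. The HOXC ratio rested in part on knockout peaks that met no control peak. It was -0.82 when only knockout peaks sharing at least 1 bp with a control peak were counted, each with all its tags. In HOXC this left the 733-tag peak, which shared 25 of its 300 bp, so most of its length lay outside the control domain.

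Peak by peak, the HOX domains with a single knockout partner stayed within 4-fold of the middle of all such pairs. Each of 6 HOX control peaks paired with exactly 1 knockout peak and the reverse. The 717-tag HOXD domain, which held 2 knockout peaks of 1228 and 766 tags, was left out by this rule. The tag ratio of a pair was knockout over control on the log2 scale, after adding a pseudocount of 1. It was centred on the median of the 7552 pairs of this kind. The centred ratio was 1.08 (0.91 to 1.24) for the 487-tag HOXB domain, 0.31 (0.21 to 0.41) for the 1681-tag HOXB domain and -0.18 (-0.64 to 0.26) for the 108-tag HOXB peak. In HOXD it was 0.37 (0.27 to 0.47) for the most anterior domain and -0.002 (-0.15 to 0.14) for the domain on the HOXD13 side. The highest value, 1.31 (1.14 to 1.49), belonged to the HOXC pair that overlapped by 25 bp and so compared largely different stretches.

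None of the 6 was past 4-fold in either direction, against a background of 28.4% of all shared peaks, with 13.4% past 4-fold higher and 14.9% past 4-fold lower in the knockout. The central part of all shared peaks, between the quartiles, ran from -1.23 to 1.18, and 5 of the 6 HOX pairs were within it. Their control widths were 1978 to 7954 bp and their knockout widths 300 to 531 bp, so equal tags stood for a higher density in the knockout. In the most anterior HOXD domain the density was 308 tags per kb in the control and 2761 in the knockout.

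**Figure D5:**
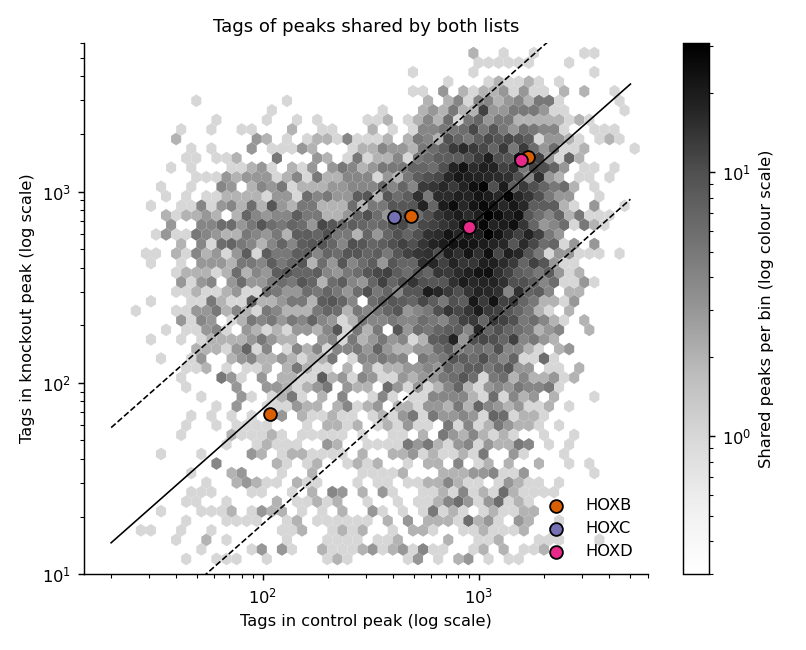
Tags in the control peak (x axis, log scale) against tags in the knockout peak (y axis, log scale) for the 7552 shared peaks, as grey shading by number per bin, with the 6 HOX pairs as coloured points. The solid line is the median ratio and the dashed lines are 4-fold either side of it. The 6 HOX pairs lie between the dashed lines.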

How the data were processed

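H3K4me3 libraries of control and knockout cells, 1 immunoprecipitate and 1 input each, were represented by 1 deposited peak list per genotype. Per the file headers, MACS was run on each immunoprecipitate against its own input with a p cutoff of 1e-04, a fragment length of 300 bp and the larger library scaled to the smaller. Alignment with Bowtie2 2.2.4, MACS 1.4.3 and the hg19 build are listed in the submitters' processing notes. Per the file headers the inputs held 14878873 control and 17890122 knockout tags, and peaks held 17235561 and 13307723 tags of the immunoprecipitates. Deposited tag counts per peak are whole numbers, not normalized. The deposited score is MACS's −log10 p times 10, identified by its place since its column name was lost. The deposited fold enrichment is a ratio to the local background, and deposited false discovery rates are given in percent. The last 3 were used only to filter or rank within a list. Deposited positions are in bp, 1-based.

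Python 3.11.15 was used with scipy 1.17.1, numpy 2.4.6, matplotlib 3.10.9 and pandas 2.3.3, and overlaps of at least 1 bp were checked against bedtools 2.31.1. Peaks were clipped to the window for covered length, and tags were summed over whole peaks. Intervals are exact (Clopper-Pearson or Poisson) at 95%. With these depths they are narrow for tags and wide for shares of few peaks. On simulated data for 7552 shared peaks, the ratio step gave the planted sign for 200 of 200 peaks. Simulated counts carried Poisson error only.

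The rule for named peaks took, per cluster, the 3 control peaks with the most tags, the 3 widest, control peaks of 1000 tags or more without a knockout peak, the 5 strongest knockout peaks, knockout peaks of 500 tags or more outside control peaks, and shared peaks past 4-fold. The gene part of the rule, including cofactors and regulators, needed an hg19 annotation and was not used here, and no protein sequences were used. Other peaks were named after their values were seen. The members and lists were chosen with earlier results of these data known. Alternatives were stricter thresholds, longer windows, other boundaries, overlap criteria, scalings and pseudocounts.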

Additional observations from a re-analysis of the deposited data

How the results depend on the processing

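No paired analysis was possible because each genotype had 1 library and no test was made. Numbers, tags, covered lengths and shares by side were taken as kept within 1.5 times, overlap shares and ratios within their counting interval. Of 184 values recomputed under alternatives, 160 were kept. This count includes values that could not change, since every HOX knockout peak passed the stricter thresholds. It also includes shares that stayed within the limit but changed which side held more of the covered length, in HOXA, HOXC and HOXD. With a false discovery rate of 1% or less, fewer weak control peaks were left by construction: 3 in HOXA (covering 5.61%), 6 in HOXB and 4 in HOXD. With the boundary 10 kb nearer the posterior end, the anterior share was 55.2% of tags in HOXA and 91.1% of covered length in HOXC, and 60.2% of covered length in HOXA. With it 10 kb nearer the anterior end, the share of covered length was 41.1% in HOXC and 44.2% in HOXD, against 59.5% and 54.4% at the middle. After division by library totals the cluster ratio was 0.59 in HOXB, 0.92 in HOXC and 1.24 in HOXD. With raw tags it was -0.47, -0.13 and 0.18. With only the knockout peaks that overlapped a control peak, each counted with all its tags, it was -0.21 in HOXB and -0.82 in HOXC. Among the 6 single pairs 3 values changed sign: after division by library totals the 108-tag HOXB peak was at 0.41 and the HOXD domain on the HOXD13 side at 0.59, and per kb of width the latter was at 0.58. For shifts other than those by construction the cause was not tested. At this depth a single peak of 70 tags carries a counting interval of 54.6 to 88.4, and 1 library per genotype cannot tell a genotype from a culture or clone.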

Other observations

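The chromosome on either side of the clusters, in flanks as long as the window itself, carried fewer control peaks per Mb than the clusters when summed. Over the 8 flanks together the control peaks numbered 28, or 23.3 per Mb, and covered 7.61%, against 48.2 per Mb and 14.3% inside the windows. The knockout list had 17 peaks there, or 14.1 per Mb, against 18.3 per Mb inside. The flank beyond the posterior end of HOXB was as rich in control peaks as its window. There 10 control peaks covered 19.6% with 6587 tags and 10 knockout peaks held 9236 tags, of which 1 peak took 5421. In the flank beyond the anterior end of HOXB, 4 control peaks held 876 tags and there was no knockout peak.

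The flanks of HOXC were nearly empty, with 1 control peak of 148 tags beyond the anterior end, 3 of 36 to 75 tags beyond the posterior end and no knockout peak on either side. Beyond the posterior end of HOXD a single control peak held 1311 tags over 4923 bp, and beyond the anterior end 3 control peaks held 1218 tags, of which 1049 were in 1 peak. The HOXA flanks held 2 knockout peaks each, of 102 and 148 tags beyond the anterior end and of 266 and 484 tags beyond the posterior end, although the window between them had none. The control peaks of those HOXA flanks had at most 83 tags.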
